A study of Homo sapiens with 60 samples.

Results

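The 46 genes described here encode the machinery that takes a cell into and through mitosis: entry kinases and their cyclins, spindle checkpoint proteins, kinetochore and passenger complex subunits, mitotic motors, spindle proteins, and the factors that start anaphase and divide the cell. They were taken by name, as members of a fixed list of mitosis and spindle genes, which was chosen with earlier results of these data known. All 46 were found among the 60675 genes of the table, and all 46 passed the filter on low counts, which left 17368 genes. RNA had been sequenced in 60 libraries of A549, an established human lung adenocarcinoma cell line, 3 libraries for each of 20 treatments that all lasted 24 h. Vehicle cells received dimethyl sulfoxide, at 0.1% in the sample labels and at 2% in the series design text. Wortmannin, a fungal metabolite that inhibits phosphoinositide 3-kinases and, at higher doses, related kinases, was given at 10 µM as the positive control. The other 18 groups received a hot water extract of 1 of 6 dried herbal drugs at 500, 100 or 20 µg/mL, and are called here by drug and dose: Polygalae Radix (Polygalae), Aucklandiae Radix (Aucklandiae), Zizyphi Semen (Zizyphi), Schisandrae Fructus (Schisandrae), Longan Arillus (Longan) and Liriopis seu Ophiopogonis Tuber (Liriopis). These doses are those of the sample labels and are used throughout, although the series design text says that doses were lowered where an extract was toxic. No label of a treated group names a solvent.

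Most of these genes are transcribed periodically. Their promoters are held silent in resting and early cycling cells by a repressor complex that sits on a short element called the cell cycle genes homology region (CHR), and they are opened late in the cycle by MYBL2 and FOXM1, with the factor NF-Y bound at CCAAT boxes nearby. Their messenger RNAs therefore peak as cells approach and enter division, and in a growing culture their level follows how many cells are there. In RNA from a whole culture, fewer cells near mitosis and less of each messenger RNA per cell cannot be told apart, which holds for every result below.

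Depth was 17.7 to 30.6 M counts per library, with a median of 24.6 M. Between replicates, the log2 values correlated with Pearson's r of 0.985 to 0.993 across genes. Among the lung epithelial markers the keratins KRT7, KRT8 and KRT18 were highest. Their medians over all libraries were 2185, 3647 and 2784 CPM (counts put on a common scale of library depth). CDH1, KRT19 and ABCA3 had medians of 32.0, 28.6 and 26.9 CPM, and EPCAM and MUC1 of 4.81 and 2.48 CPM. The alveolar markers NKX2-1, SFTPB and SFTPC had medians between 0 and 0.0762 CPM, so the lung origin of the line was not visible in them. Of 11 markers of other cell types, CD68, COL1A1 and COL3A1 had medians of 11.1, 28.97 and 5.30 CPM. The other 8 (PDGFRB, DCN, PECAM1, VWF, CDH5, PTPRC, CD3E and HBB) had medians between 0 and 0.165 CPM, with DCN, VWF, PTPRC, CD3E and HBB at 0. Library names form sets: they start with 4 in Polygalae and Aucklandiae, 3 in Zizyphi and Longan, 2 in Schisandrae and Liriopis, 1 in Wortmannin and A1 in Vehicle. In each comparison with Vehicle the library set and the treatment cannot be told apart. All 19 comparisons with Vehicle share the same 3 Vehicle libraries.

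The promoters of 39 of the 46 genes are in the RefSeq table (GRCh38.p14), as 49 windows from 250 bases before to 50 bases after a transcription start. The other genes are AURKA, BIRC5, BUB3, FOXM1, TPX2, TTK and UBE2C. Below are the last 120 bases before the start of the 4 genes among those with the largest falls that show how these promoters differ, all on the plus strand. Capitals mark TTTGAA, the core of a CHR element, and CCAAT, the box that NF-Y binds, read on either strand, so that ATTGG is a CCAAT box on the other strand.
PLK1, chr16:23678769-23678888: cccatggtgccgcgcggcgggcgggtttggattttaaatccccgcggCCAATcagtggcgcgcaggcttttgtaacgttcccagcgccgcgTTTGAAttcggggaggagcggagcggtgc
CDC20, chr1:43358861-43358980: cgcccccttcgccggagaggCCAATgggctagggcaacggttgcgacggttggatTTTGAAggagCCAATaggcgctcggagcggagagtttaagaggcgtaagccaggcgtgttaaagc
CCNB2, chr15:59105026-59105145: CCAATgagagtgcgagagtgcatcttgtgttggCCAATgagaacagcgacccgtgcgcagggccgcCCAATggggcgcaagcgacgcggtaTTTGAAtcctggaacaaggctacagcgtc
PTTG1, chr5:160421735-160421854: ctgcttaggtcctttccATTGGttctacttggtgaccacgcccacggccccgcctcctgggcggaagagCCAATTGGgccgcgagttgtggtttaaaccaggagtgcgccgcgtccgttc
PLK1 and CCNB2 each hold TTTGAA 29 bases before the start, and CCNB2 has 3 CCAAT boxes upstream of it in this stretch. In PTTG1, 2 CCAAT boxes on opposite strands overlap in the run CCAATTGG, and neither TTTGAA nor the variant TTCGAA occurs in the window.

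Over the 49 windows, TTTGAA on either strand was present in 31, or 63.3%, against 15.2% of the 35116 promoter windows of all genes. TTTGAA or TTCGAA was present in 67.3% of the windows of these genes, 16.4% of all windows, 56.7% of those of a list of other mitotic genes and 7.41% of those of DNA replication genes. CCAAT was present in 75.5% against 34.6% of all windows, and in 63% of those of DNA replication genes. The forkhead motif GTAAACA was in 1 window, in front of CDK1, or 2.04% against 3.42% of all. The windows of these genes and those of replication genes thus differed widely in the share with CHR letters and less in the share with CCAAT. A match describes the letters of the window and not a bound site.

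In the Vehicle libraries the 46 genes together took 0.743, 0.730 and 0.748% of the counts. In Wortmannin they took 0.499, 0.507 and 0.509%, in every library less than in any Vehicle library. The means were 0.740 ± 0.009% and 0.505 ± 0.005% (SD, n = 3). Polygalae 500 had 0.704, 0.708 and 0.712%, also below Vehicle in all 3 libraries. Polygalae 100 lay at 0.720 ± 0.005% and Polygalae 20 at 0.700 ± 0.026%, where 1 library was at 0.670% and the other two at 0.712 and 0.717%. The means of the remaining 15 groups were between 0.723% (Zizyphi 500) and 0.744% (Liriopis 100).

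**Figure D1:**
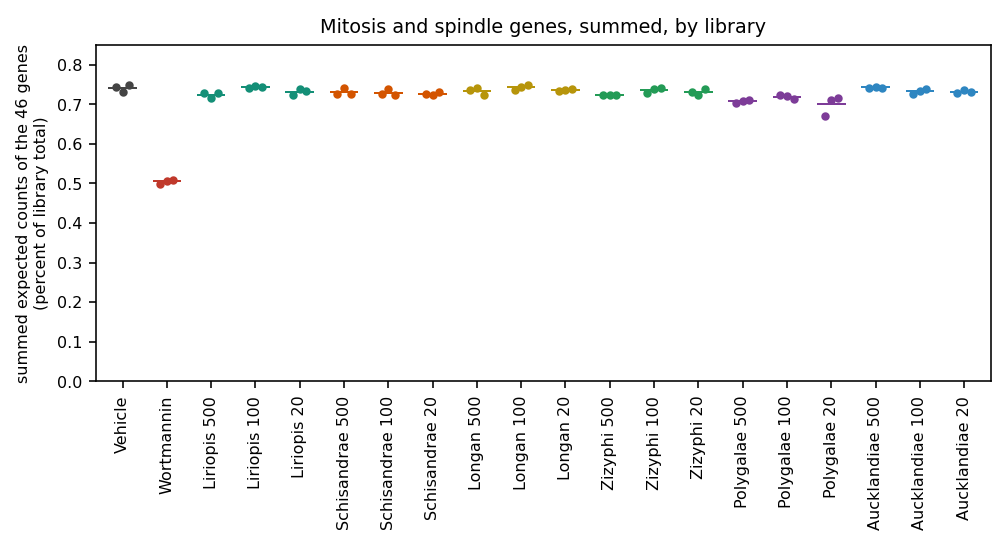
Summed counts of the 46 genes as a percent of each library's total (vertical axis, from 0) in the 20 groups (horizontal axis; extracts by drug and dose in µg/mL). Each point is 1 library and each line the mean of 3. The Wortmannin libraries lie near 0.505%, apart from all others, and 1 Polygalae 20 library lies at 0.670%.

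Levels between genes are compared as CPM per kilobase of merged exon length in Vehicle. TOP2A, the topoisomerase that untangles sister chromatids, had the highest at 158 ± 4.31 (SD, n = 3). It was followed by CDC25B at 86.1, TPX2 at 81.4, CCNB1 at 79.8 and CDC20 at 73.9 CPM per kilobase. The lowest were the kinetochore subunit NDC80 at 4.30 and the phosphatase CDC25C at 4.92 CPM per kilobase. The set thus spanned well over an order of magnitude before any treatment.

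All 46 genes were lower in Wortmannin than in Vehicle. At an adjusted p under 0.05 (edgeR's quasi-likelihood test, two-sided, Benjamini-Hochberg adjustment over all genes tested), 46 were lower and 0 higher, where 19.4% of all genes were lower. DESeq2 gave the same 46 and 0, and at an unadjusted p under 0.05 the count higher was also 0. The log2 fold changes ran from -1.11 to -0.27 with a median of -0.58, while the median of all genes was 0.01. In all 46 genes the 3 Wortmannin libraries were below the 3 Vehicle libraries, as they were for 25.6% of all genes. In 43 of the 46 they were below all 57 libraries of the other groups, against 9.73% of all genes. The exceptions were INCENP, ASPM and MKI67, each because of the same Polygalae 20 library. A log2 fold change of -0.5 or lower was found in 31 of the 46 genes and in 3.77% of all genes tested.

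The sizes differed by role. The median log2 fold change was -0.74 for the 4 anaphase factors, -0.71 for the 10 entry kinases, cyclins and regulators, -0.59 for the 6 spindle-associated proteins, -0.58 for the 4 passenger complex subunits, -0.56 for the 7 kinesins, -0.52 for the 6 centromere and kinetochore genes, -0.45 for the 5 checkpoint genes and -0.41 for the 2 cytokinesis genes. Differences between roles were not tested.

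**Figure D2:**
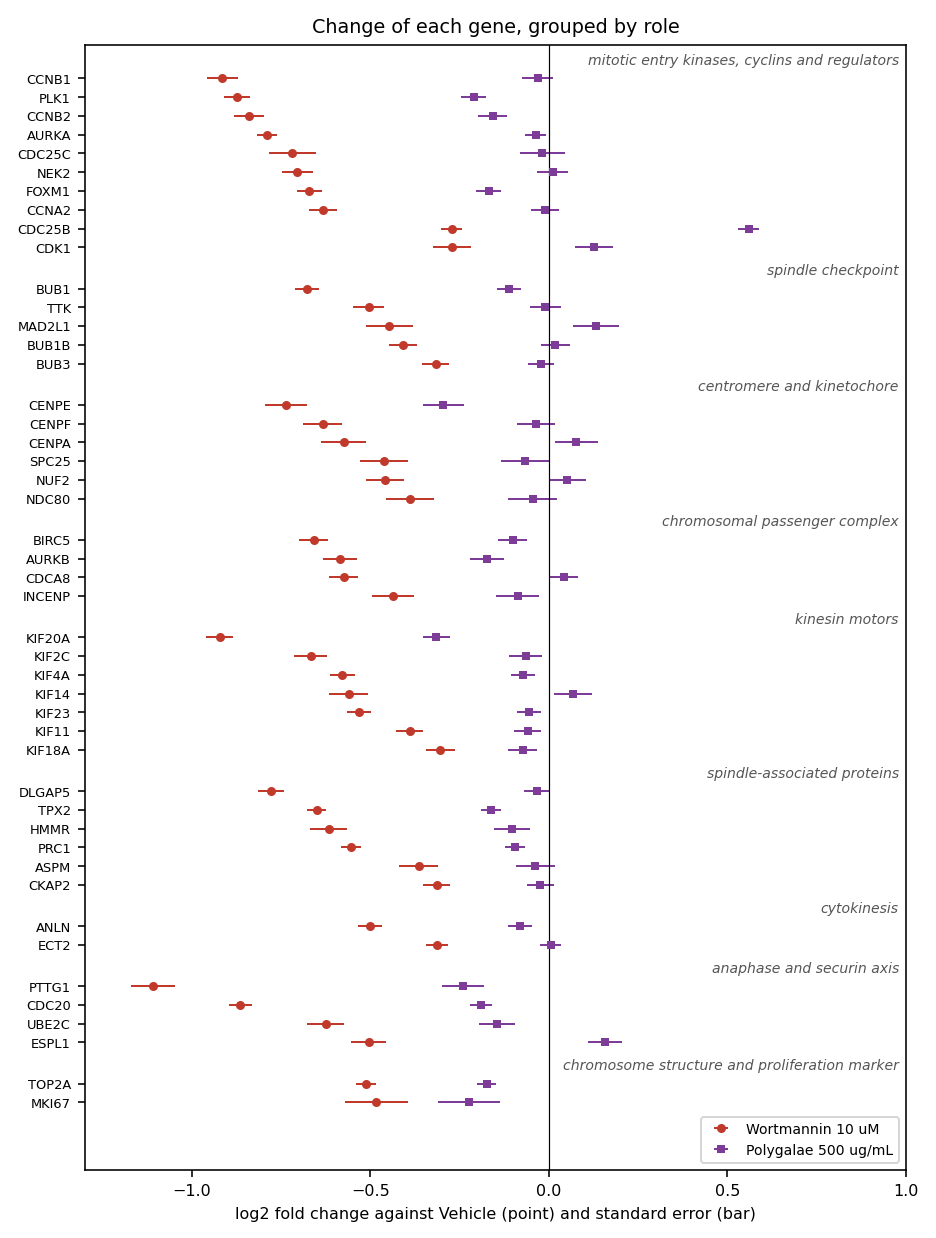
Log2 fold change against Vehicle (point) with its standard error (bar) for each of the 46 genes, grouped by role, in Wortmannin (red circles) and Polygalae 500 (purple squares). All red circles lie left of 0, from -1.11 for PTTG1 to -0.27 for CDK1, while the purple squares lie between -0.32 and 0.16 except for CDC25B at 0.56.

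Among the genes of mitotic entry, CCNB1 fell most and CDK1 and CDC25B least. CCNB1, the cyclin B1 that activates CDK1 at entry, was at 199.8, 204.3 and 208.6 CPM in Vehicle and at 108.2, 106.5 and 110.4 CPM in Wortmannin. The groups did not overlap, and the log2 fold change was -0.91 ± 0.04 (SE, adjusted p = 3.2e-25). PLK1, the Polo kinase of centrosome maturation and spindle assembly, went from 210.0, 202.1 and 204.7 CPM to 113.6, 110.6 and 112.2 CPM, a log2 fold change of -0.87 ± 0.04 (adjusted p = 3.1e-28). Cyclin B2, encoded by CCNB2, was at 115.7, 111.7 and 112.6 CPM in Vehicle and at 62.4, 64.1 and 63.3 CPM in Wortmannin (-0.84 ± 0.04, adjusted p = 7.7e-25). In these genes each Wortmannin library held little more than 1 count for every 2 in Vehicle, with no overlap.

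AURKA, the kinase of spindle poles, was at 162.8, 161.4 and 161.8 CPM in Vehicle and at 95.3, 91.7 and 94.0 CPM in Wortmannin (-0.79 ± 0.03, adjusted p = 1.5e-30). CDC25C, a phosphatase that removes the inhibitory phosphates from CDK1, is the least abundant gene of this role, with 16.3, 18.03 and 14.9 CPM against 10.5, 10.1 and 9.27 CPM (-0.72 ± 0.07, adjusted p = 8.7e-14). Its libraries spread more than those of AURKA, and the groups still did not overlap. NEK2, a kinase of centrosome separation, the transcription factor FOXM1, and CCNA2, the cyclin A2 of late S phase and entry, changed by -0.70, -0.67 and -0.63 on the log2 scale. The smallest changes of the role were those of CDK1 and CDC25B. CDK1, the kinase that drives entry, was at 107.4, 103.0 and 104.0 CPM in Vehicle and at 88.4, 84.0 and 87.7 CPM in Wortmannin (-0.27 ± 0.05, adjusted p = 3.6e-05). CDC25B, which starts CDK1 activation at the centrosome, was at 370.8, 370.5 and 373.4 CPM against 308.8, 302.7 and 311.1 CPM (-0.27 ± 0.03, adjusted p = 6.6e-11). The 95% interval of CDK1 reached down to -0.38, while those of CCNB1 and CCNB2, its B-type cyclins, reached up to -0.83 and -0.76. This difference between genes was not tested.

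The 4 anaphase factors held the deepest fall of the set. PTTG1 encodes securin, which keeps separase inactive until the sister chromatids may part. Its Vehicle libraries had 106.5, 110.6 and 101.5 CPM and its Wortmannin libraries 47.8, 47.6 and 52.3 CPM, a log2 change of -1.11 ± 0.06 (SE, adjusted p = 1.9e-20), or 53.6% less. All Wortmannin libraries were below 86.2 CPM, the lowest value in the 57 others. CDC20, the activator of the anaphase-promoting complex, went from 154.1, 150.1 and 147.9 CPM to 81.5, 81.4 and 85.4 CPM (-0.86 ± 0.03, adjusted p = 1.4e-30). UBE2C, the ubiquitin-conjugating enzyme of that complex, changed by -0.63. ESPL1, which encodes separase itself, changed least in this role, from 63.5, 64.6 and 65.9 CPM to 46.4, 46.2 and 44.1 CPM (-0.51 ± 0.05, adjusted p = 4.6e-13).

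In the spindle checkpoint, which holds anaphase until all chromosomes are attached, BUB1 fell most and BUB3 least. BUB1, a checkpoint kinase at kinetochores, was at 121.8, 122.0 and 120.7 CPM in Vehicle and at 76.7, 73.2 and 77.7 CPM in Wortmannin (-0.68 ± 0.03, adjusted p = 9.8e-25). BUB3, a binding partner of BUB1 and BUB1B, was at 161.6, 164.1 and 156.2 CPM against 128.2, 125.0 and 133.5 CPM (-0.32 ± 0.04, adjusted p = 2.1e-10). The kinase TTK, MAD2L1 and BUB1B lay between them at -0.51, -0.45 and -0.41.

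At the centromere, CENPE, the motor that carries chromosomes to the spindle equator, was at 76.7, 71.7 and 81.2 CPM in Vehicle and at 47.3, 46.03 and 44.3 CPM in Wortmannin (-0.74 ± 0.06, adjusted p = 2.1e-15). NDC80, the microtubule-binding core of the outer kinetochore, was at 15.0, 15.9 and 15.6 CPM against 11.1, 12.5 and 11.9 CPM (-0.39 ± 0.07, adjusted p = 4.1e-06). Its partners NUF2 and SPC25 both changed by -0.46, and CENPF and the centromeric histone CENPA by -0.63 and -0.57. The 3 subunits of the NDC80 complex thus had the smallest falls of this role.

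The passenger complex corrects wrong attachments and directs cytokinesis. BIRC5 (survivin) was at 181.9, 185.7 and 181.6 CPM in Vehicle and at 114.8, 113.8 and 119.0 CPM in Wortmannin (-0.66 ± 0.04, adjusted p = 4.3e-20). INCENP, the scaffold of the complex, was at 96.6, 104.2 and 104.8 CPM against 77.3, 74.2 and 74.4 CPM (-0.44 ± 0.06, adjusted p = 3.7e-08). The kinase AURKB and CDCA8 (borealin) changed by -0.59 and -0.58.

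Among the kinesins, KIF20A, which carries the passenger complex to the midzone, fell most. Its Vehicle libraries had 89.5, 91.3 and 91.4 CPM and its Wortmannin libraries 48.1, 46.4 and 49.0 CPM (-0.92 ± 0.04, adjusted p = 6e-28). KIF18A, which dampens chromosome oscillation, fell least, from 67.4, 61.3 and 69.1 CPM to 53.2, 53.6 and 53.4 CPM (-0.30 ± 0.04, adjusted p = 5.5e-09). KIF4A was at 84.9, 90.2 and 89.0 CPM against 57.3, 61.2 and 58.4 CPM (-0.58 ± 0.03, adjusted p = 2.9e-21). The depolymerase KIF2C, KIF14, the midzone motor KIF23 and KIF11, the motor that separates the poles, changed by -0.67, -0.56, -0.53 and -0.39. In each of the 7 kinesins all Wortmannin libraries were below all others.

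Of the spindle-associated proteins, DLGAP5, which stabilises kinetochore fibres, went from 87.0, 82.2 and 83.3 CPM to 50.3, 48.6 and 48.2 CPM (-0.78 ± 0.04, adjusted p = 3e-25). CKAP2 went from 91.2, 87.8 and 90.9 CPM to 72.8, 73.0 and 71.2 CPM (-0.31 ± 0.04, adjusted p = 2.8e-10). TPX2, the activator of AURKA, HMMR, the midzone cross-linker PRC1, and ASPM, a protein of the spindle poles, changed by -0.65, -0.62, -0.56 and -0.36. The fall of DLGAP5 was the deepest of the role and that of CKAP2 the shallowest, and neither overlapped with Vehicle.

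In cytokinesis, the ring scaffold ANLN was at 227.6, 217.0 and 227.3 CPM in Vehicle and at 153.5, 161.8 and 159.5 CPM in Wortmannin (-0.50 ± 0.03, adjusted p = 1.1e-18). ECT2, the exchange factor that activates RhoA at the cortex, was at 238.5, 221.7 and 237.6 CPM against 180.5, 188.8 and 192.1 CPM (-0.31 ± 0.03, adjusted p = 8.7e-13). TOP2A was at 1033, 987.5 and 1038 CPM against 703.6, 716.5 and 722.4 CPM (-0.51 ± 0.03, adjusted p = 5.2e-23). MKI67, the Ki-67 protein that coats mitotic chromosomes and is used as a proliferation marker, was at 784.4, 787.8 and 826.2 CPM against 551.4, 592.5 and 571.5 CPM (-0.48 ± 0.09, adjusted p = 1.8e-05). All 4 falls were smaller than the median fall of the set, and none of the 4 genes overlapped with Vehicle.

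Genes with and without these promoter letters overlapped in their changes. The 30 genes with TTTGAA or TTCGAA in a window had a median log2 fold change of -0.51 (from -0.87 to -0.27). The 9 with neither, among them PTTG1, KIF20A, CCNB1, CENPE and NEK2, had a median of -0.70 (from -1.11 to -0.31). No test of this was made.

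Genes around this set moved less. Of 68 other mitotic genes, 57 were lower with Wortmannin and 0 higher (also 0 at an unadjusted p under 0.05), with a median log2 fold change of -0.35. CENPW, a histone-fold protein of the centromere, fell most among them, at -0.72 ± 0.12 (SE, adjusted p = 2e-06 in edgeR). Of 16 genes of the anaphase-promoting complex, 11 were lower and 0 higher (also 0 unadjusted), median -0.18, with UBE2S, its chain-extending enzyme, lowest at -0.78 ± 0.08. Of 19 condensin and cohesin genes, 16 were lower and 0 higher (also 0 unadjusted), median -0.24, with the condensin subunit NCAPD2 lowest at -0.65 ± 0.03. All of these lists were chosen with results of these data known.

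Of the 24 regulators of late cell cycle transcription, 4 were lower and 4 higher (median -0.02). Among all 17368 genes tested, 19.4% were lower and 3121 higher, and both counts of regulators are near those shares. Among the regulators MYBL2, the activator in the complex that binds CHR elements, fell most, at -0.38 ± 0.03 (SE, adjusted p = 3.4e-15 in edgeR). RBL2, the p130 protein of the repressor form of that complex, rose most, at 0.21 ± 0.04 (adjusted p = 1.7e-05). Of 25 DNA replication genes, 12 were lower, a larger share than among all genes, and 2 were higher (median -0.07). The largest fall was that of RRM1, a subunit of ribonucleotide reductase, at -0.29 ± 0.03, and CCNE2, the cyclin E2 of S phase entry, rose at 0.30 ± 0.11 (adjusted p = 0.018). Of 8 replication-dependent histone genes tested, 0 were lower (also 0 unadjusted) and 4 higher, with H1-2 highest at 0.61 ± 0.11. Most transcripts of replication-dependent histone genes carry no poly(A) tail. Their level in messenger RNA libraries can move with RNA quality, whose part in the results was not tested. DESeq2 was not applied to these lists.

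**Figure D3:**
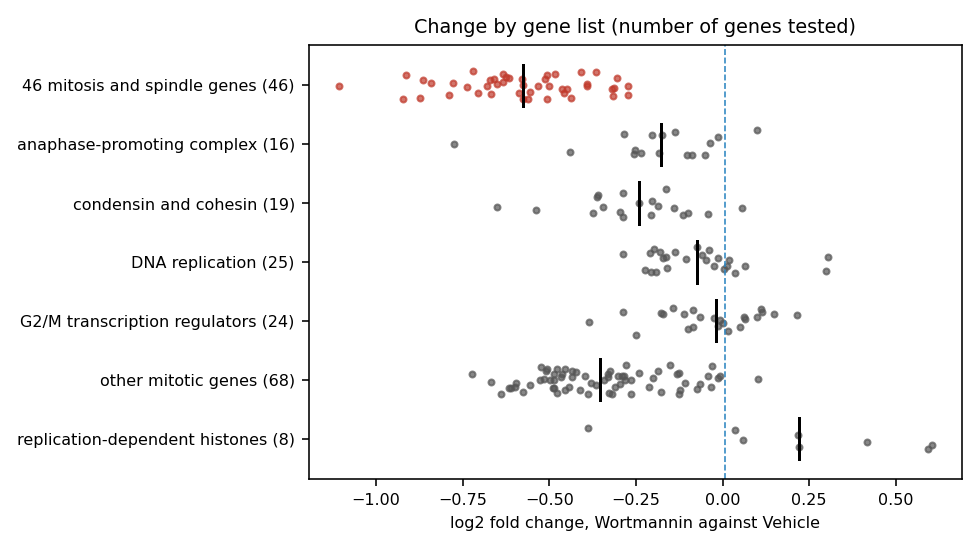
Log2 fold change of Wortmannin against Vehicle (horizontal axis) for the 46 genes (red) and 6 other gene lists (grey), with the number of genes tested. Points are genes with vertical jitter for legibility, black bars are list medians, and the dashed line is the median of all genes. The 46 genes lie furthest left (median -0.58), then the other mitotic genes (-0.35). The medians of the regulators (-0.02) and the replication genes (-0.07) lie near the dashed line.

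The 11 markers of other cell types summed to 45.2 to 46.5 CPM in Vehicle and 47.4 to 51.3 CPM in Wortmannin. Of the 3 that passed the filter, CD68, a lysosomal protein of macrophages that other cells also make, was the 1 that changed, at 0.53 ± 0.13 (SE, adjusted p = 0.00098 in edgeR). The 11 lung epithelial markers summed to 8324 to 8781 CPM and 8251 to 8405 CPM. Of the 8 tested, 4 were higher and 0 lower (1 lower unadjusted), where 3121 of all 17368 genes tested were higher. The lipid transporter ABCA3 was highest, at 1.02 ± 0.06 (SE, adjusted p = 5.9e-22 in edgeR).

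With Polygalae 500 a smaller part of the set was called, with smaller changes. Of the 46 genes, 13 were lower and 2 higher, where 9.48% of all genes were lower and 10.4% higher. The median log2 fold change was -0.06 and that of all genes 0.00. DESeq2 counted 14 lower and 2 higher. All 3 libraries lay below all Vehicle libraries in 18 genes (18% of all genes did) and above them in 5 (18.9% of all genes did). So the share of genes lower was above that of all genes, and the share higher was below it. The list of other mitotic genes did not show the same. In it as many genes were higher as lower, and its median was slightly positive (counts in the closing section). The 11 markers of other cell types summed to 46.3 to 50.8 CPM, against 45.2 to 46.5 CPM in Vehicle. Of the 3 tested, CD68 rose (0.96 ± 0.13, SE, adjusted p = 1.1e-07 in edgeR), and COL1A1 (-0.35 ± 0.07, adjusted p = 2.9e-05) and COL3A1 (-0.43 ± 0.12, adjusted p = 0.0072) fell. Of the 8 lung epithelial markers tested, 4 were lower (KRT18 -0.33, KRT8 -0.26, CDH1 -0.19 and KRT7 -0.14) and 1 higher (EPCAM 0.35). All 11 summed to 6924 to 7349 CPM, below the 8324 to 8781 CPM of Vehicle. KRT7, KRT8 and KRT18 made up most of these sums. The part of these markers in the result was not tested.

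The largest change with Polygalae 500 was a rise. CDC25B was at 533.1, 552.3 and 557.2 CPM, against 370.8, 370.5 and 373.4 CPM in Vehicle. The groups were far apart, with a log2 fold change of 0.56 ± 0.03 (SE, 95% interval 0.50 to 0.62, adjusted p = 7.8e-23 in edgeR). In Polygalae 100 it was at 490.2, 496.8 and 511.9 CPM (0.43 ± 0.03, adjusted p = 2.5e-17). Polygalae 20, at 370.0, 376.9 and 395.3 CPM, overlapped with Vehicle (0.04, adjusted p = 0.51). Within the 9 Polygalae libraries alone, which belong to 1 library set, the slope was 0.26 ± 0.03 per 5-fold step of dose (adjusted p = 0.00025). ESPL1 also rose, to 71.6, 71.5 and 73.5 CPM from 63.5, 64.6 and 65.9 CPM in Vehicle (0.16 ± 0.05, adjusted p = 0.011). Without the third Polygalae 500 library ESPL1 no longer passed (0.15, adjusted p = 0.052), which left 1 gene higher.

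The largest falls with Polygalae 500 were those of KIF20A, CENPE and PTTG1. KIF20A was at 71.3, 78.0 and 69.0 CPM against 89.5, 91.3 and 91.4 CPM in Vehicle (-0.32 ± 0.04, SE, adjusted p = 1.4e-09). CENPE was at 58.4, 66.8 and 61.4 CPM against 76.7, 71.7 and 81.2 CPM (-0.30 ± 0.06, adjusted p = 9e-05). PTTG1 was at 86.2, 94.5 and 88.6 CPM against 106.5, 110.6 and 101.5 CPM (-0.24 ± 0.06, adjusted p = 0.0019). None of these 3 overlapped with Vehicle. PLK1 was at 167.7, 186.9 and 178.0 CPM against 210.0, 202.1 and 204.7 CPM (-0.21 ± 0.04, adjusted p = 4.6e-06). CDC20 was at 130.9, 135.5 and 129.7 CPM against 154.1, 150.1 and 147.9 CPM (-0.19 ± 0.03, adjusted p = 2.8e-06). AURKB, TOP2A, FOXM1, TPX2, CCNB2, UBE2C, BUB1 and PRC1 were the other genes that fell, with log2 fold changes from -0.17 to -0.09. BUB1 no longer passed without Polygalae 500 replicate 1 (-0.09, adjusted p = 0.08). MKI67, at 689.3, 662.1 and 701.8 CPM, was below all Vehicle libraries but did not pass (-0.22 ± 0.09, adjusted p = 0.065 in edgeR). It passed as lower in DESeq2 (-0.23, adjusted p = 0.036) and, in edgeR, without a filter on low counts (-0.24, adjusted p = 1.6e-07). The same held in edgeR fits of only the libraries compared (-0.22, adjusted p = 8.6e-07) and without the 3 Polygalae 20 libraries (-0.22, adjusted p = 0.0018). Under the other alternatives MKI67 did not pass.

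Several genes with deep falls in Wortmannin were not called with Polygalae 500. The log2 fold changes of CCNB1, AURKA, DLGAP5 and CDC25C were -0.03, -0.04, -0.03 and -0.02, and the 95% interval of CCNB1 was -0.12 to 0.05. In the direct comparison, all 46 genes were lower in Wortmannin than in Polygalae 500 (0 higher, also unadjusted and in DESeq2), where 23.9% of all genes were lower. Here too, the library set and the treatment cannot be told apart. The differences ran from -0.88 for CCNB1 to -0.23 with a median of -0.51. CDC25B differed by -0.83 ± 0.03 on the log2 scale (SE, adjusted p = 5.6e-31 in edgeR).

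The lower doses of Polygalae also had genes past the threshold in both directions. Polygalae 100 had 13 genes lower and 2 higher, against 5.27 and 7.51% of all genes, and DESeq2 counted 14 and 2. CDC25B and ESPL1 (0.17 ± 0.05, adjusted p = 0.0091 in edgeR) were the 2 higher, and CENPE (-0.24) and FOXM1 (-0.23) fell most. The count lower was 7 without Vehicle replicate 2, without Polygalae 100 replicate 1 or without its replicate 3, and without its replicate 1 the count higher was 1. Against the 18 libraries of all extracts at 20 µg/mL in place of Vehicle, it was 5. Polygalae 20 had 10 lower and 1 higher, against 5.53 and 6.59% of all genes, and DESeq2 counted 11 and 2. FOXM1, at 204.9, 224.2 and 227.4 CPM against 259.4, 257.7 and 258.7 CPM, was below Vehicle in every library (-0.24 ± 0.04, adjusted p = 5.3e-06). CDK1 was the gene that rose (0.18 ± 0.05, adjusted p = 0.018).

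The first Polygalae 20 library stood apart. Among the 57 libraries outside Wortmannin it had the lowest value for 12 of the 46 genes and the highest for 9, as it did for 15.2% and 13.6% of all genes tested. It had 462.0 CPM of MKI67, where the other two had 738.5 and 744.3 CPM, and 138.0 CPM of ASPM, where they had 186.4 and 191.1 CPM. It had 127.4 CPM of PTTG1, where they had 99.3 and 94.6 CPM. The 12 genes at their lowest had a median merged exon length of 6304 bases and the 9 at their highest 3646 bases; the part of transcript length or RNA quality in this was not tested. Without this library, Polygalae 20 had 3 genes lower and 0 higher. Its count lower was 6 without Vehicle replicate 3, and its count higher was 0 without Vehicle replicate 2 or 3, and 3 without its own replicate 2 or 3. In a fit of only the 3 Polygalae 20 and the 3 Vehicle libraries, 0 genes were called in either direction.

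The dose slopes use no Vehicle library and stay within 1 library set. With Polygalae, 1 gene fell with dose and 1 rose, against 2.02 and 2.92% of all genes. The gene that fell was CDC20, from 158.8, 147.2 and 150.0 CPM at 20 µg/mL to 135.6, 131.9 and 135.1 CPM at 100 µg/mL and 130.9, 135.5 and 129.7 CPM at 500 µg/mL. All libraries at the upper doses were below all at 20 µg/mL (-0.10 ± 0.03 per 5-fold step, SE, adjusted p = 0.034 in edgeR). KIF20A and PTTG1 had slopes of -0.10 and -0.13 (adjusted p = 0.067 and 0.14). Without the first Polygalae 20 library 3 genes fell with dose, and 0 did without Polygalae 500 replicate 1 or 3, Polygalae 100 replicate 1 or 3, or Polygalae 20 replicate 2 or 3. With the replicate number as a block, CDC20 no longer passed and 0 genes fell with dose. The slope taken from the model of all 60 libraries called 5 genes lower and 4 higher.

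**Figure D4:**
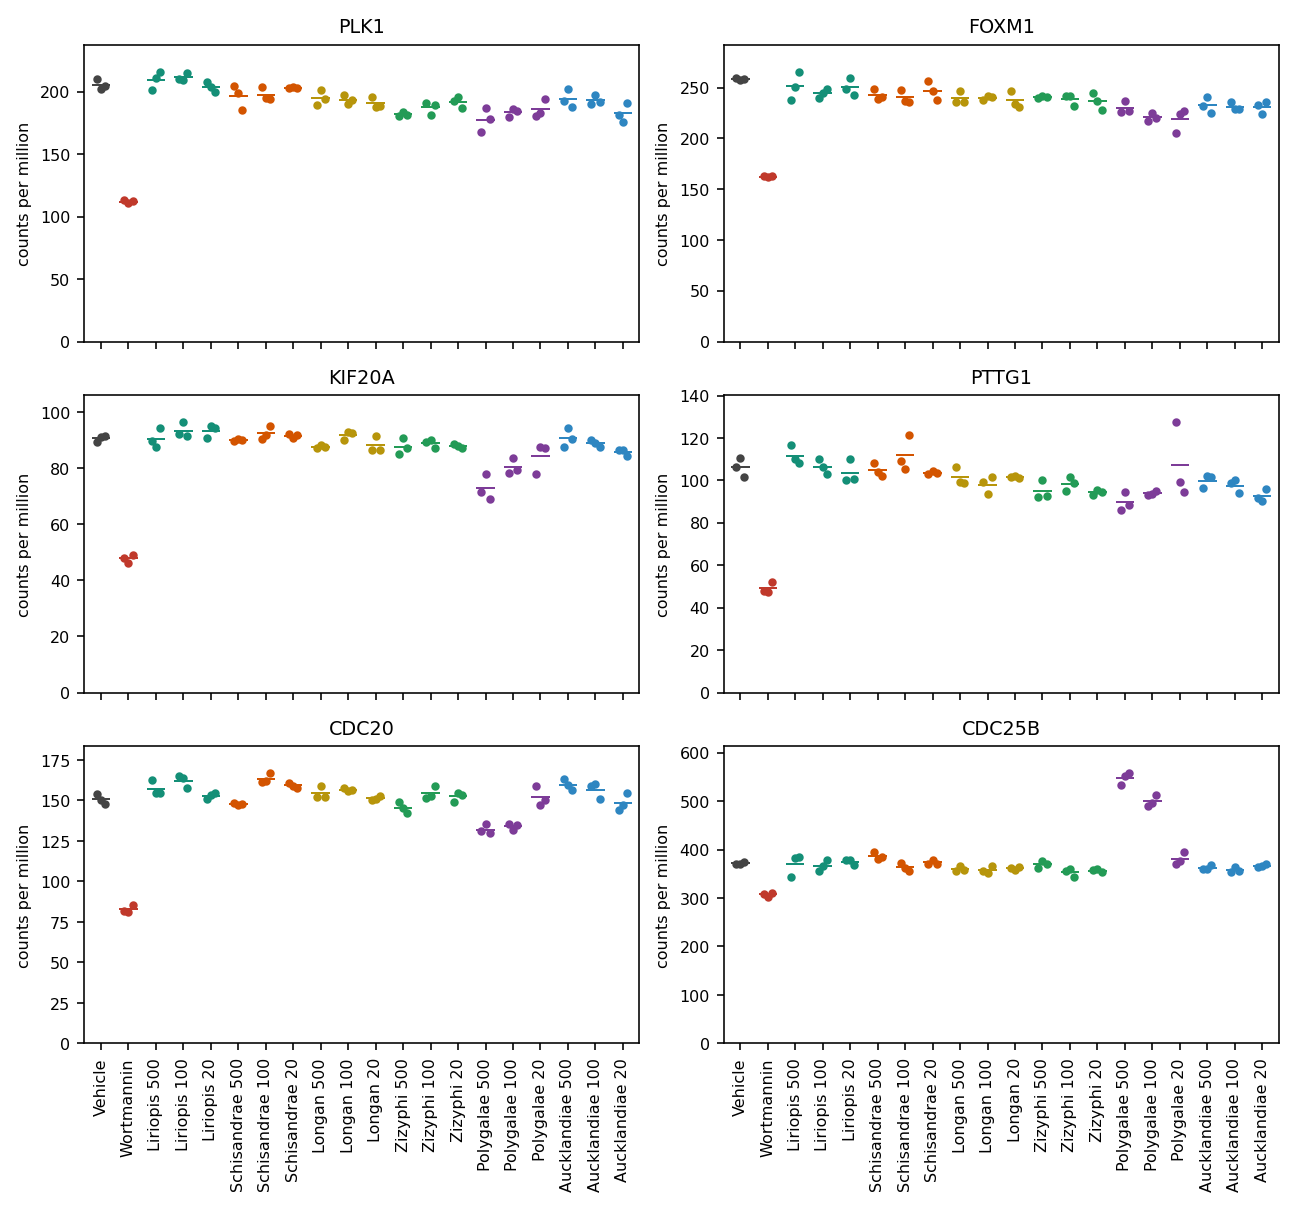
CPM per library (vertical axes, from 0) of PLK1, FOXM1, KIF20A, PTTG1, CDC20 and CDC25B in the 20 groups. Each point is 1 library and each line the mean of 3. All 6 genes are lowest in Wortmannin, CDC25B is highest in Polygalae 500 and 100, and 1 Polygalae 20 library is the highest for PTTG1 at 127.4 CPM.

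Polygalae and Aucklandiae belong to the same library set. Between them at 500 µg/mL, 11 genes were lower and 1 higher in Polygalae, against 7.04 and 8.2% of all genes, and DESeq2 counted the same numbers. The higher gene was CDC25B, at 359.6, 360.6 and 367.2 CPM in Aucklandiae 500 (0.60 ± 0.03, SE, adjusted p = 5.1e-24 in edgeR). KIF20A, at 87.7, 94.5 and 90.6 CPM in Aucklandiae 500, differed by -0.32 ± 0.04 (adjusted p = 1.1e-09). CDC20 differed by -0.27 ± 0.03 and TOP2A by -0.23 ± 0.03. For CDC25B, KIF20A and CDC20, the difference from an extract of the same set was as large as that from Vehicle. PTTG1 was not among the 11.

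Aucklandiae 500 had 1 gene lower and 2 higher than Vehicle, against 2.69 and 2.24% of all genes, and DESeq2 counted the same. FOXM1 was lower, at 232.3, 241.2 and 224.9 CPM (-0.15 ± 0.03, SE, adjusted p = 0.0046 in edgeR). ESPL1 was higher, at 72.4, 75.2 and 72.7 CPM (0.18 ± 0.05, adjusted p = 0.0099), as was KIF4A, at 92.0, 97.3 and 96.0 CPM (0.11 ± 0.03, adjusted p = 0.035). None of the 3 overlapped with Vehicle. The count higher was 0 without Vehicle replicate 1 or Aucklandiae 500 replicate 2 and 1 without its replicate 3, which also left 0 lower.

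In Aucklandiae 100, FOXM1 alone was lower (-0.16), where 0.967% of all genes were lower, and in Aucklandiae 20 PTTG1 (-0.20), PLK1 (-0.17) and FOXM1 (-0.16) were, where 1.61% of all genes were. DESeq2 counted 1 and 4 lower. The dose slope of Aucklandiae called 0 of the 46 genes (0.967% of all genes in either direction), and 11 rose at an unadjusted p under 0.05.

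With the other 4 extracts almost none of the set was called. With Zizyphi 500, PLK1 was lower, at 180.3, 184.1 and 181.3 CPM, all below Vehicle (-0.18 ± 0.04, SE, adjusted p = 0.002 in edgeR), where 0.915% of all genes were lower. DESeq2 called 2 genes. The count lower was 0 against the 18 libraries of all extracts at 20 µg/mL and 6 in a fit of only the libraries compared. Zizyphi 100 and 20 called 0 (0.599 and 0.363% of all genes in either direction), with 8 and 10 genes at an unadjusted p under 0.05 and 2 and 2 called by DESeq2. With Schisandrae 100, CDC20 was higher (0.12 ± 0.03, adjusted p = 0.034), where 0.921% of all genes were higher, and DESeq2 called 1 gene in each direction. Schisandrae 500 and 20 called 0 (0.478 and 0.196% of all genes), with 5 and 2 genes at an unadjusted p under 0.05 and 0 in DESeq2.

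Longan 500, 100 and 20 called 0 of the 46 genes, against 0.104, 0.132 and 0.0173% of all genes. At an unadjusted p under 0.05 there were 5, 4 and 6 genes, and DESeq2 called 0, 1 and 1. Liriopis 500, 100 and 20 also called 0, against 0.00576, 0.00576 and 0.0864% of all genes. Here 6, 5 and 4 genes were below an unadjusted p of 0.05, and DESeq2 called 1, 1 and 1. The medians of the set in these 6 groups were between -0.03 and 0.02.

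Within a library set, 0 of the 46 genes differed between Zizyphi 500 and Longan 500 (0.213% of all genes; 3 at an unadjusted p under 0.05, 0 in DESeq2). Between Schisandrae 500 and Liriopis 500 it was also 0 (0.322% of all genes; 9 unadjusted, 1 in DESeq2). The dose slopes of Zizyphi, Schisandrae, Longan and Liriopis called 0 (0.351, 0.0518, 0.0345 and 0.0461% of all genes), with 5, 2, 1 and 6 genes at an unadjusted p under 0.05; DESeq2 was not run on slopes. These values leave changes too small for 3 libraries a group undecided.

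**Figure D5:**
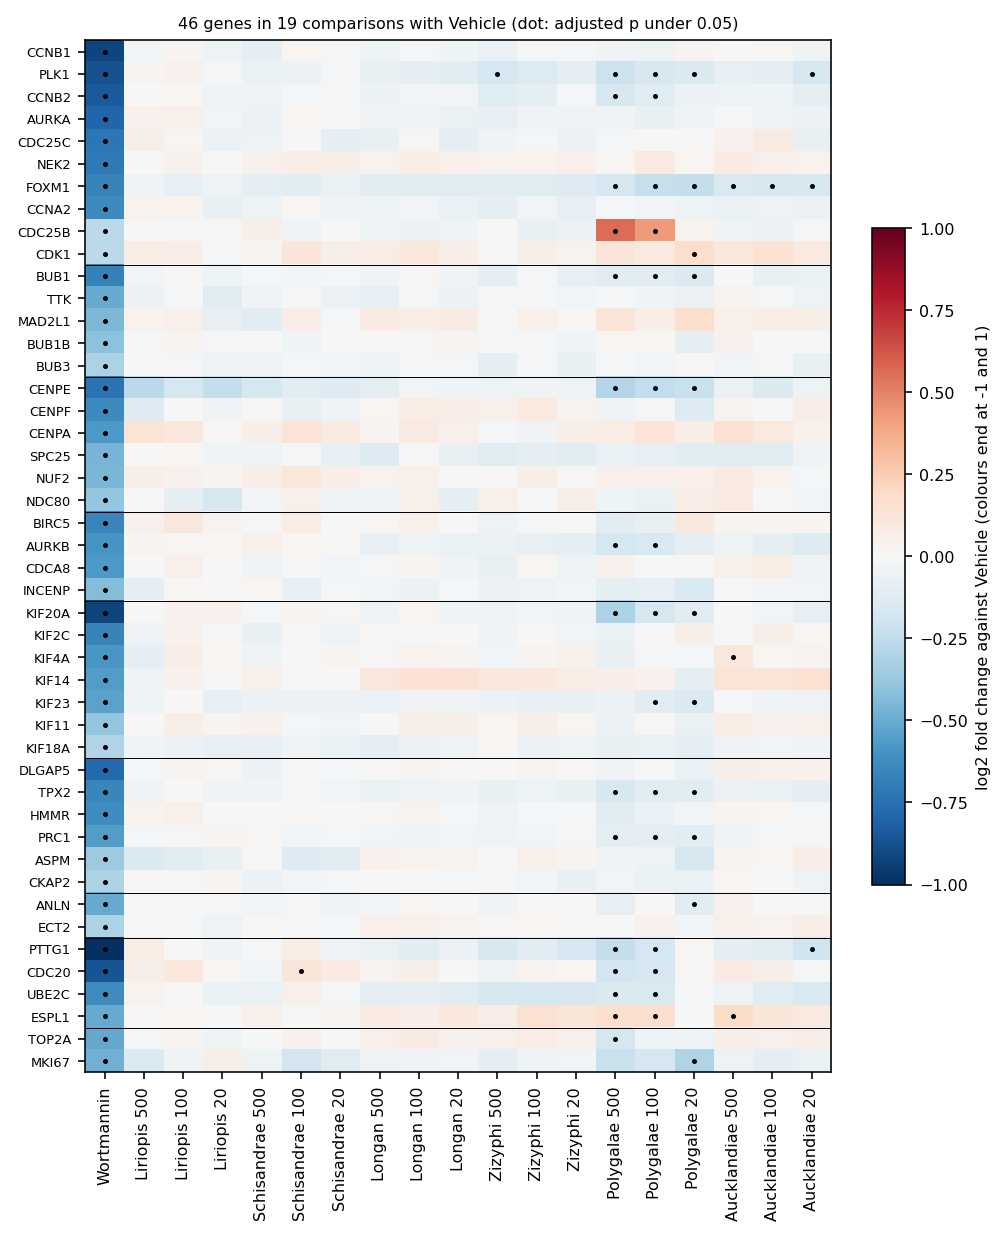
Log2 fold change of the 46 genes (rows, in the order of their roles) in the 19 comparisons with the same 3 Vehicle libraries (columns). Colour runs from blue (-1) to red (1), and a dot marks an adjusted p under 0.05. The Wortmannin column is blue and dotted throughout, CDC25B is red in Polygalae 500 and 100, and PLK1 and FOXM1 carry dots in several extract columns.

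FOXM1 and PLK1 were the genes called most often outside Wortmannin. FOXM1 passed in 6 comparisons, all of Polygalae or Aucklandiae, and its Vehicle libraries, at 257.7 to 259.4 CPM, were above the median of the 57 libraries outside Wortmannin (237.9 CPM). PLK1 passed in 5, namely Polygalae 500, 100 and 20, Zizyphi 500 and Aucklandiae 20. Its Vehicle libraries were at 202.1 to 210.0 CPM and the median was 193.8 CPM. Since all these comparisons use the same 3 Vehicle libraries, they are not separate tests of these genes.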

How the data were processed

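Messenger RNA in 60 samples of A549 cells was measured by sequencing of paired reads of 100 bases from a strand-specific kit, per the labels' protocols, with RNA integrity numbers above 7. The deposited values are expected counts per gene (estimated counts that need not be whole), not scaled for depth. RSEM 1.3.3, STAR 2.7.3a, Trim Galore 0.6.5, FastQC 0.11.9 and GRCh38 are listed in the submitters' processing notes. Annotation release and strand setting: not given in the sources used here. Counts of genes that overlap another on the opposite strand are therefore uncertain, and counts shared with near-identical copies are estimates.

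Of the values, 10.7% were not whole, and all were rounded. Symbols came from a gene table for 56558 genes and from GENCODE 29 for 497. Genes were filtered with filterByExpr, and libraries scaled with TMM (factors 0.965 to 1.05). The edgeR 4.0.16 quasi-likelihood model (R 4.3.3) held 1 mean per group over all 60 libraries. SE stands for the model's standard error of a log2 value, and CPM use TMM-scaled depth. Slopes were fitted to the 9 libraries of an extract. DESeq2 1.42.0 was an alternative, with others listed in the closing section. The fits were tested on simulated data without library set effects and without a library that stood apart. That test does not cover either of them.

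The 46 genes, the other lists and the markers were chosen with earlier results of these data known. Full values are given for the 10 members with the largest change with Wortmannin, the 6 with the largest with Polygalae 500, each member that rose with Wortmannin or at 500 µg/mL, and the largest and smallest of each role. Of each other list, the largest fall and rise are named. Values of FOXM1, of MKI67 with Polygalae and of the first Polygalae 20 library were added after the values were seen. Promoter windows are those of RefSeq (GRCh38.p14), searched for the named motifs on both strands. Replicate numbers did not pair the samples. Whether replicates were separate cultures is not stated, and p-values then cover only the spread among these samples, which may be technical.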

Additional observations from a re-analysis of the deposited data

How the results depend on the processing

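With Wortmannin, all 46 genes stayed lower under every alternative run, and each of the 25 genes given in full kept its direction and its side of the threshold. With Polygalae 500 the count lower ran from 11 to 16. Of the same 25 genes there, 4 that were not called changed sign. CDC25C (-0.02) was at 0.04354 against the 18 libraries at 20 µg/mL, and ran from -0.08396 to 0.05697 with 1 library left out. BUB3 and CKAP2 (both -0.02) were at 0.01723 and 0.009494 against those 18 libraries. ECT2 (0.00431) was at -0.009146 without a filter on low counts, and ran from -0.02919 to 0.03205 with 1 library left out. BUB1 no longer passed against the 18 libraries (-0.05) or without Polygalae 500 replicate 1, nor did ESPL1 without replicate 3 (0.15). MKI67, BIRC5, KIF4A, ANLN, KIF18A and CDK1 passed under at least 1 alternative, CDK1 as higher (0.13, adjusted p = 0.0063 in a fit of only the libraries compared) and KIF4A as lower (-0.10, adjusted p = 0.0041 against the 18 libraries). DESeq2 gave 2 genes higher for Polygalae 20, 2 lower for Zizyphi 500 and 1 lower for Liriopis 500. Without a filter on low counts, Polygalae 20 had 2 higher, Aucklandiae 500 had 1 higher, Zizyphi 500 had 3 lower, Schisandrae 500 had 1 lower and Liriopis 500 had 2 lower. Against the 18 libraries at 20 µg/mL in place of Vehicle, Polygalae 100 had 5 lower, Aucklandiae 500 and Zizyphi 500 had 0 lower, and Liriopis 500 had 1 lower and 2 higher. In fits of only the libraries compared, Polygalae 500, Polygalae 100 and Aucklandiae 500 each had 4 higher, Polygalae 20 had 0 lower and 0 higher, Zizyphi 500 had 6 lower and Longan 500 had 1 lower. The Polygalae slope from the 60-library model had 5 genes lower and 4 higher. Without the 3 Polygalae 20 libraries, an alternative chosen after seeing the data, Zizyphi 500 had 4 lower and Liriopis 500 had 2 lower. The cause of these moves was not tested.

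Leaving out 1 library of the groups compared at a time gave 0 to 2 higher and 0 to 1 lower for Aucklandiae 500. For Polygalae 500 it gave 1 to 2 higher, and for Polygalae 100 7 to 10 lower and 1 to 2 higher. Polygalae 20 had 3 to 14 lower and 0 to 3 higher. Liriopis 500 had 0 to 1 lower and the Polygalae slope 0 to 3 lower. In the model with 1 mean per group, the spread is estimated over all groups in the fit. This holds with all libraries and also where a group is left with 2.

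Samples with the same replicate number did not deviate together: their correlations with Vehicle ran from -0.05 to 0.09. With the replicate number as a block, Liriopis 500 had 1 lower and the Polygalae slope 0 lower, and no other count moved by over 1.5 times. Depth limits the low genes most, such as NDC80 and CDC25C, and 3 libraries a group limit all small changes.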

Other observations

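With Polygalae 500, where 9.48% of all genes were lower and 10.4% higher, the other lists were counted in the same way. Of 68 other mitotic genes, 5 were lower and 5 higher (median log2 fold change 0.02, edgeR), and of 16 genes of the anaphase-promoting complex 0 were lower (1 at an unadjusted p under 0.05; DESeq2 was not applied) and 1 higher. Of 25 DNA replication genes, 6 were lower and 2 higher (median -0.06). The 5 of 68 and the 2 of 25 are below or near the shares of all genes. Of 8 replication-dependent histone genes, 4 were lower and 0 higher (also 0 unadjusted), with a median of -0.42, where Wortmannin gave 0.22. H2BC5 and H2AC6 changed by -0.53 and -0.52. Among the condensin and cohesin genes, SMC2 (-0.19), NCAPD2 (-0.18), SMC4 (-0.16) and SMC1A (-0.15) were lower, and STAG2 (0.16) and ESCO2 (0.15) higher. Among the regulators of late cell cycle transcription, E2F8 (-0.37), MYBL2 (-0.15), CDKN1A (-0.14) and NFYC (-0.14) were lower. LIN54 (0.18), RBL2 (0.18) and CDKN1B (0.17) of that list were higher. For the condensin and cohesin genes and for the regulators, the share higher was near that of all genes and the share lower was above it.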
